A study of Mus musculus with 24 samples.

Results

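Colorectal tumors and normal colorectal tissue of mice titled as heterozygous for a c-MAF knockout (KO) were compared across all genes. c-MAF, encoded by Maf, is a leucine zipper transcription factor of the large Maf family, studied in lymphocytes, macrophages and lens. The libraries were chosen by their titles alone. They are 6 tumor libraries, 3 titled KO-1-hetero and 3 titled KO-8-hetero here, and 4 normal libraries, 2 of each, which makes 10 of the 24 libraries of the series. The labels do not say what the leading numbers 1 and 8 stand for, and they are called 2 sets below. All 10 libraries carry the genotype label c-MAF_KO and the treatment label AOM/DSS, and their titles also hold the word drug. AOM is azoxymethane, a carcinogen that targets the colon, and DSS is dextran sulfate sodium, a polymer that injures the colonic lining when given in drinking water. Normal tissue therefore came from treated animals too, and no untreated animal enters the comparison. The labels give no strain, sex or age for these animals, no design of the knockout allele, no statement of the cells in which it acts, and no link between a tumor and a normal piece of one animal. Nothing in them says that replicates were separate animals, so the p-values below measure the spread between these libraries, which may in part be technical. For comparison, 3 tumor and 2 normal KO-8-homo libraries and 4 tumor and 2 normal WT-young libraries of the series were used, all with the AOM/DSS label. KO-8-homo are titled homozygous knockout with the leading number 8, and WT-young carry the WT genotype label and the word young.

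The colonic epithelium renews from stem cells at the base of the crypts, which depend on Wnt signals. Their daughters mature into absorptive colonocytes, mucus-secreting goblet cells, hormone-producing enteroendocrine cells and tuft cells. Tumors raised by AOM/DSS commonly carry mutations that stabilise beta-catenin, the effector of the Wnt pathway, and grow in inflamed tissue. Each library is bulk tissue, a mixture of epithelium, immune cells, connective tissue and at times muscle. Fewer cells of a type and less RNA per cell cannot be told apart in such data.

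The files hold FPKM, fragments divided by transcript length and by library size, for 24346 gene symbols. At least 1 FPKM was reached by 12664 to 13290 genes in the tumors and by 12074 to 12514 in normal tissue. Depth is not given, and the depth estimated from the smallest values ranged from 0.821 to 1.85 relative to the median of the 10 libraries. The 10 most abundant genes took 6.58% to 7.53% of the summed FPKM in tumors and 8.79% to 12.7% in normal tissue. The first principal component held 52.2% of the variance and separated tumors, at 17.7 to 59.8, from normal tissue, at -35.79 to -74.78. Epithelial identity was present in both tissues. Epcam, an adhesion molecule of simple epithelia, ranged from 596 to 922 FPKM in tumors and from 797 to 955 FPKM in normal tissue, and the ranges overlapped. Cdh1 (E-cadherin) and Vil1 (villin of the brush border) overlapped likewise.

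Maf was read first, as the gene the genotype label names. It measured 4.43, 4.62 and 7.4 FPKM in the KO-1-hetero tumors and 5.21, 4.46 and 2.62 FPKM in the KO-8-hetero tumors. Normal tissue held 3.07 and 1.82 FPKM for KO-1-hetero and 2.78 and 1.52 FPKM for KO-8-hetero. All 10 libraries thus held Maf transcript, and 5 of the 6 tumors lay above every normal library. The transcript that an altered allele may still make is not known here, so this level does not check the genotype. Maf was higher in tumors by 0.80 ± 0.22 (SE) on the log2(FPKM + 1) scale, with an adjusted p of 0.0195 in limma and an exact permutation p of 0.0286 over 210 splits, or 0.0714 after Benjamini-Hochberg adjustment over 5 genes. Mafg, a small Maf protein that pairs with other leucine zipper factors, measured 11.6, 13.5 and 35 FPKM in tumors at the lowest, median and highest, and 4.87, 5.75, 6.52 and 9.92 FPKM in normal tissue, with no overlap. Its difference was 1.14 ± 0.28 (SE), with an adjusted limma p of 0.0132 and an exact permutation p of 0.00952, the smallest that 210 splits allow, or 0.0476 after adjustment. Its relatives Maff and Mafk and the neighbouring gene Wwox differed by 0.08, -0.31 and 0.16 and did not pass the limma threshold.

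Several features of the libraries bear on every result below. Xist, the noncoding RNA of the inactive X chromosome, measured 0.046, 0.0621 and 49.9 FPKM in the KO-1-hetero tumors and 0.0519, 0.0455 and 48.8 FPKM in the KO-8-hetero tumors. The 4 normal libraries held 30.3, 28.9, 18.2 and 7.38 FPKM. Ddx3y, a gene of the Y chromosome, showed the reverse, at 9.92, 9.43 and 0.0309 and 10.6, 12.5 and 0.0223 FPKM in the tumors and at most 0.0454 FPKM in normal tissue. Tumor replicates 1 and 2 of each set thus had the transcripts of male tissue, while replicate 3 of each set and all 4 normal libraries had those of female tissue. Tumor and normal libraries that share the number 1 or 2 thus differ in these transcripts, so as labelled they do not come from the same animal. The fit was therefore repeated with the 2 tumors of high Xist alone against the 4 normal libraries, and its counts stand beside the gene lists below as the high-Xist fit. A second fit kept all 10 libraries and added a term for high Xist, and its counts are given after the lists. Maf itself differed by 0.77 in both and did not pass.

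A second feature was transcript length. Spearman's rho between a gene's deviation from its mean and its transcript length, over 13032 genes, ran from 0.0641 to 0.39 in the tumors and from -0.37 to -0.02 in normal tissue, with no overlap. Genes are not independent, so no p is given. Among the 696 genes with a longest transcript of up to 1000 bases the median log2 fold change was -0.48, with 41.7% lower in tumors, whereas the 4665 genes over 4000 bases had a median of 0.20 and 7.72% lower. KO-8-hetero normal replicate 2 was at one end of this trend and KO-1-hetero tumor replicate 1 at the other. A fit with the trend removed from each library, an alternative chosen after the data were seen, is quoted for some results only. It called 31% of genes, 15.6% higher and 15.4% lower. Maf differed by 0.57 in it (adjusted p = 0.0613). The same fit also moved counts of lists for which it is not quoted below. Rising T cell genes went from 8 to 10, MHC class II genes from 1 to 3 and fibroblast and matrix genes from 12 to 10. Last, KO-8-hetero tumor replicate 2 held genes of squamous epithelium at levels far above those of the other 9 libraries, described further below.

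Of the 13106 genes with at least 1 FPKM in at least 4 of the 10 libraries, 4222 (32.2%) differed between tumor and normal tissue at an adjusted p under 0.05, with the set of the library as a block. Higher in tumors were 2062 genes (15.7%) and lower were 2160 (16.5%), and the median log2 fold change of all genes tested was 0.01. A log2 fold change of at least 1 was reached by 788 of the higher genes (6.01% of those tested) and by 765 of the lower (5.84%). The tumor and normal ranges did not overlap for 1627 genes with tumors above (12.4%) and for 1669 with tumors below (12.7%). In the high-Xist fit, with 2 tumors, 1443 genes (11%) passed, 902 higher (6.88%) and 541 lower (4.13%). With the term for high Xist 907 passed (6.92%), 553 higher (4.22%) and 354 lower (2.7%). Of the 1443, 1297 were also among the 4222, all in the same direction. Fitted alone, the KO-1-hetero libraries gave 2928 genes (22.3%) and the KO-8-hetero libraries 836 (6.38%). Counts of list members without 1 library stand against the share of all genes called without it. The shares given here count both directions. In these fits 47.4% to 49.8% of the calls were higher in tumors, so the share in 1 direction is smaller. The share in both directions was 25.3%, 26.7% and 28.4% without KO-1-hetero tumor replicates 1, 2 and 3, and 26.8%, 30.3% and 29.5% without those of KO-8-hetero. It was 28.3% and 22.6% without KO-1-hetero normal replicates 1 and 2, and 27.7% and 26.3% without those of KO-8-hetero.

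**Figure D1:**
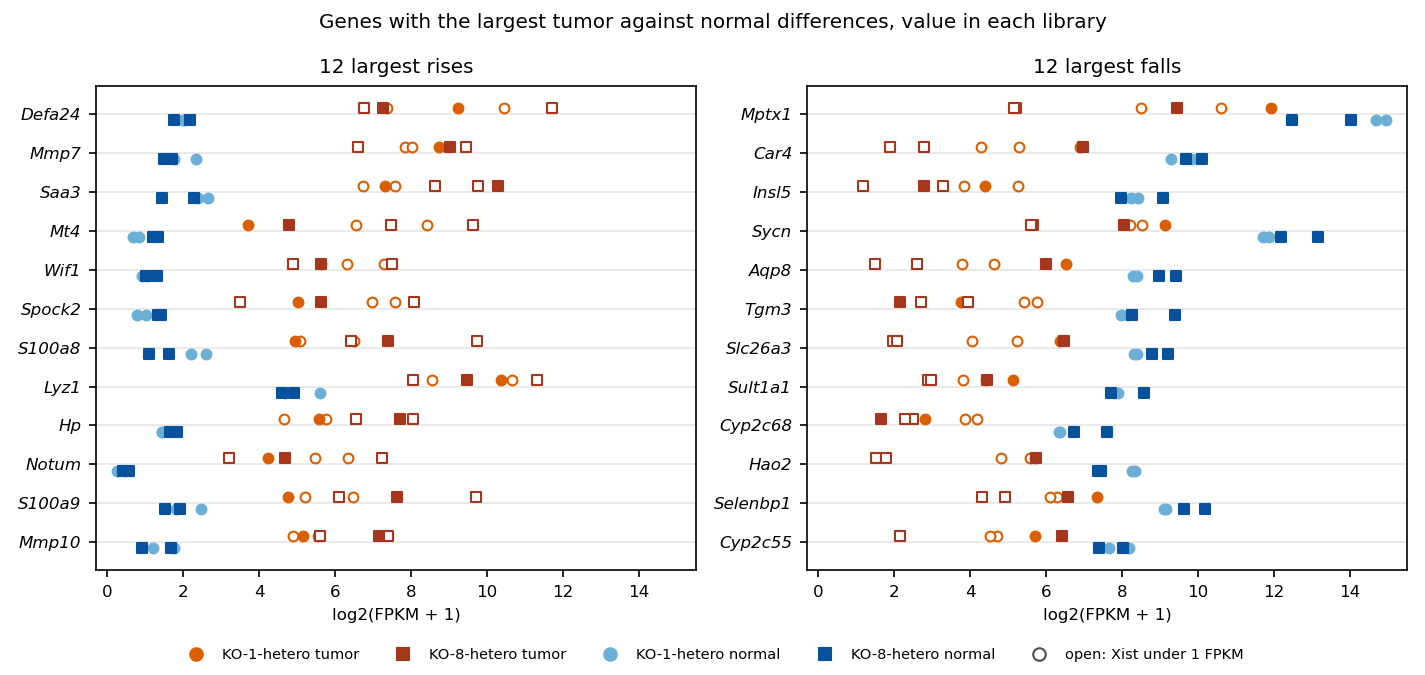
log2(FPKM + 1) in 12 genes at each end of the fold changes, rises on the left and falls on the right, 1 point for each of the 6 tumor and 4 normal libraries; open symbols mark libraries with Xist under 1 FPKM. The tumor points lie wholly above the normal points for every rising gene and wholly below for every falling gene, which was a condition for being shown.

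Several of the largest rises were of secreted proteins. Defa24, an alpha-defensin that kills bacteria and is normally made by Paneth cells of the small intestine, measured 107, 384 and 3343 FPKM at the lowest, median and highest of the tumors. Normal tissue held 2.96, 3.02, 2.4 and 3.52 FPKM, in the order KO-1-hetero replicates 1 and 2 and KO-8-hetero replicates 1 and 2, an order kept below. Every tumor lay above every normal library, by 6.81 ± 0.89 (SE) on the log2(FPKM + 1) scale (adjusted p = 0.000949), and the highest was KO-8-hetero tumor replicate 1. Mmp7 (matrilysin), a protease that activates such defensins and cuts matrix, held 96.5, 341 and 693 FPKM in tumors. It held 4.03, 2.38, 2.24 and 1.79 FPKM in normal tissue, a log2 difference of 6.46 ± 0.48 (SE) (adjusted p = 0.000149). Saa3, an acute-phase serum amyloid protein, held 105, 294 and 1237 FPKM against 5.3, 4.22, 1.69 and 3.87 FPKM, a difference of 6.19 ± 0.56 (SE). Its highest tumors were KO-8-hetero replicates 3 and 2.

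Mt4, a metallothionein of squamous epithelia, ranged from 12 to 786 FPKM in tumors with a median of 134, against 0.768, 0.60, 1.53 and 1.29 FPKM in normal tissue. It was again highest in KO-8-hetero tumor replicate 1. Spock2, a matrix proteoglycan, held 10.2, 85.8 and 267 FPKM against 0.727, 1.04, 1.54 and 1.65 FPKM, a difference of 4.98 ± 0.78 (SE). Hp (haptoglobin, which binds free hemoglobin) held 24, 72.3 and 265 FPKM against 1.7, 1.69, 2.58 and 2.15 FPKM, a difference of 4.79 ± 0.40 (SE). Among abundant genes, Lyz1, the lysozyme of Paneth cells, held 263, 1009.8 and 2519 FPKM against 47.2, 24.5, 23.3 and 29 FPKM. Ifitm3, an interferon-induced membrane protein that restricts viral entry, held 615, 824 and 1256 FPKM against 223, 179, 164 and 194 FPKM, with no overlap and a log2 difference of 2.11 ± 0.21 (SE). S100a11, a calcium-binding protein, measured 941, 1199 and 3887 FPKM in tumors and 704, 587, 459 and 723 FPKM in normal tissue. It rose by 1.28 ± 0.34 (SE), and KO-8-hetero tumor replicate 2 was far above the other tumors.

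Several of the largest falls were of genes of mature colonic epithelium. Mptx1, a mucosal pentraxin of the colon, was the most abundant gene of 3 of the 4 normal libraries at 26215, 31604, 5707 and 16676 FPKM, and held 34.7, 529 and 3865 FPKM at the lowest, median and highest of the tumors. The groups did not overlap, and the log2 difference was -5.56 ± 0.95 (SE) (adjusted p = 0.00273). Sycn (syncollin, a secretory granule protein) fell from 3352, 3742, 4623 and 9103 FPKM to 47.2, 279 and 559 FPKM, a difference of -4.70 ± 0.65 (SE). Both were lowest in KO-8-hetero tumor replicates 1 and 2. Selenbp1, a selenium-binding methanethiol oxidase, held 548, 565, 790.2 and 1171 FPKM in normal tissue and 18.7, 71.8 and 161 FPKM in tumors. Tgm3, a transglutaminase that crosslinks proteins, held 249, 283, 671 and 304 FPKM in normal tissue and 3.47, 13.5 and 52.9 FPKM in tumors. Its lowest tumor was KO-8-hetero replicate 3 and its highest normal library was KO-8-hetero replicate 1. Hao2, a peroxisomal hydroxy acid oxidase, held 323, 305, 163 and 172 FPKM in normal tissue against 1.88, 36.8 and 51.8 FPKM, lowest in KO-8-hetero tumor replicates 1 and 2.

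**Figure D2:**
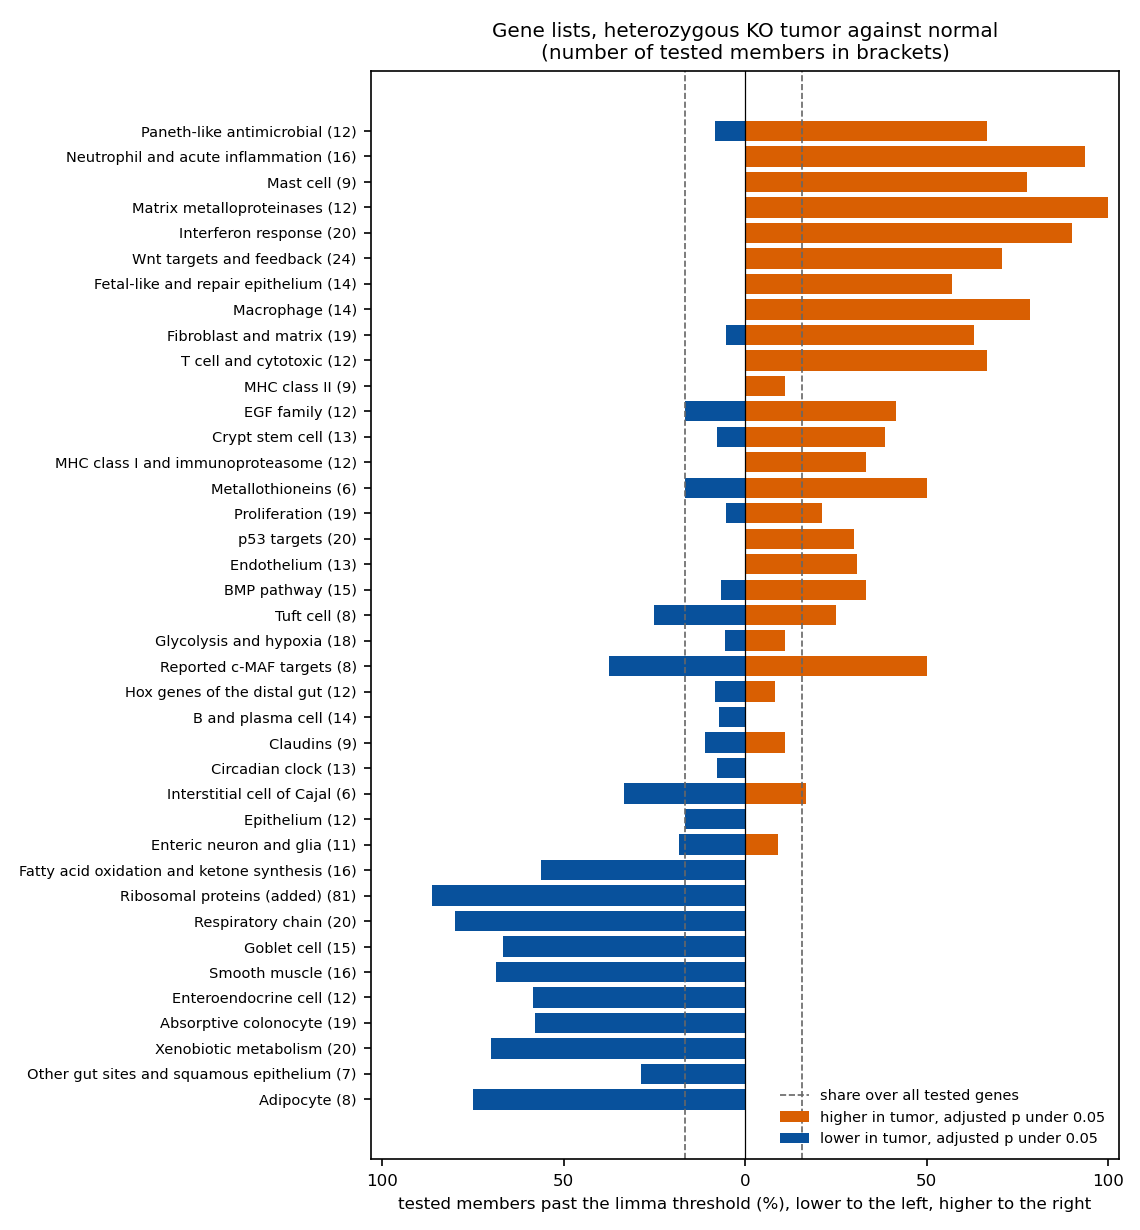
Percent of the tested members of each gene list that passed the limma threshold, higher in tumors to the right and lower to the left, with dashed lines at the share of all 13106 genes tested (15.7% higher and 16.5% lower). Matrix metalloproteinases, neutrophil and interferon genes reach furthest to the right, ribosomal protein, respiratory chain and adipocyte genes furthest to the left.

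Gene lists were described by their counts and medians beside those of all genes tested, which were 15.7% higher, 16.5% lower and a median of 0.01. Members were mostly named for a small p, so lack of overlap among those named follows in part from that choice. Tumors lay wholly above normal tissue for 15 of 24 Wnt, 6 of 12 Paneth-like, 9 of 12 metalloproteinase and 14 of 16 neutrophil genes. The same held for 7 of 14 macrophage, 13 of 20 interferon and 9 of 19 fibroblast genes, against 12.4% of all. They lay wholly below for 9 of 19 colonocyte, 6 of 15 goblet and 12 of 20 xenobiotic genes, against 12.7%. Of 24 Wnt targets and feedback genes 17 rose and none fell, with a median log2 fold change of 1.49. The 2 largest differences were those of secreted antagonists, which dampen the pathway that induces them. Wif1, which binds Wnt ligands, held 28.5, 63.4 and 180.4 FPKM in tumors against 1.08, 0.878, 1.45 and 1.04 FPKM in normal tissue, a log2 difference of 5.13 ± 0.47 (SE) (adjusted p = 0.000274). Notum, an enzyme that strips the lipid from Wnt ligands, held 8.23, 33.6 and 148 FPKM against 0.188, 0.376, 0.331 and 0.473 FPKM, a difference of 4.77 ± 0.65 (SE). Neither overlapped, and both were highest in KO-8-hetero tumor replicate 1 and lowest in KO-8-hetero tumor replicate 2. Dkk2, of the Dickkopf family of antagonists, held 3.74, 4.21 and 18.6 FPKM in tumors and 0.197, 0.458, 0.0702 and 0.147 FPKM in normal tissue, a difference of 2.48 ± 0.35 (SE).

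Among nuclear and receptor genes of the same list, Ccnd1 (cyclin D1, which drives entry into the cell cycle) held 57.3, 72.8 and 99.5 FPKM in tumors and 24.6, 30.1, 28 and 35 FPKM in normal tissue, a difference of 1.31 ± 0.17 (SE). Prox1, a homeobox factor switched on in Wnt-driven colon tumors and also a marker of lymphatic endothelium, held 2.35, 11.9 and 48.2 FPKM against 0.204, 0.233, 0.489 and 0.158 FPKM. Its difference was 3.24 ± 0.68 (SE), and Lyve1, a receptor of lymphatic endothelium, differed by 0.05 without passing. The 7 members that did not pass were Znrf3, Ascl2, Sox9, Ephb2, Ephb3, Nkd2 and Bambi, at -0.23 for Nkd2 to 1.07 for Znrf3. Of the 24, 15 rose and none fell in the high-Xist fit.

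The promoters of the list were searched for ATCAAAG or its reverse complement CTTTGAT, a motif of the TCF/LEF factors through which beta-catenin acts, in the 250 bases before each RefSeq start site (GRCm38.p6). The motif was present in 1053 of 32851 promoters (3.21%) and in 278 of 9963 tested genes with a promoter in the table (2.79%), which included 54 of 1510 genes that rose (3.58%) and 39 of 1625 that fell (2.4%). It was present in 2 of the 15 list members with a promoter in the table (13.3%), Sp5 and Tnfrsf19, which are named for this reason and not for their change. In Tnfrsf19 it lies before the second of the 2 start sites listed for the gene, which is inside the annotated gene. With the first listed promoter of each gene alone the motif was present in 1 of the 15 (6.67%) and in 228 of the 9963 tested genes (2.29%). These shares are a description, with no test. A match is not a binding site. The 2 promoters are given 5′ to 3′ on the strand of the gene, ending at the base before the start site, with the motif in capitals. Sp5 lies on the plus strand of chromosome 2 and its window is chr2:70474673-70474922, and Tnfrsf19 lies on the minus strand of chromosome 14 with the window chr14:61037988-61038237.
Sp5: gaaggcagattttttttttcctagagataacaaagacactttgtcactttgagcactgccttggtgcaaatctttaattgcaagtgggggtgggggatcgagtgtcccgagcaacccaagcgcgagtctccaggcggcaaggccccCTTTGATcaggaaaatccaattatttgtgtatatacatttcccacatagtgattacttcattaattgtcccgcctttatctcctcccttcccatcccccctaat
Tnfrsf19: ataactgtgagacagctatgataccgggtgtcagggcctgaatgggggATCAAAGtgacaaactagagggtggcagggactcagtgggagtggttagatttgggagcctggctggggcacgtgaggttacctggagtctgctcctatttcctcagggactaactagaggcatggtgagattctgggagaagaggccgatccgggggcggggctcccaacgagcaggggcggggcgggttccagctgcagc
The first base of the motif lies 104 bases before the start site in Sp5 and 202 bases before it in Tnfrsf19. Sp5, a zinc finger repressor induced by Wnt signals, held 1.18, 3.5 and 15.6 FPKM in tumors and 0.0353, 0.124 and 0.195 FPKM in normal tissue (lowest, median and highest of each). It rose by 2.18 ± 0.52 (SE) on the log2 scale (adjusted p = 0.011). Tnfrsf19 (TROY, a receptor found on crypt stem cells) held 3.99, 5.08 and 17.7 FPKM against 0.367, 1.12 and 1.33 FPKM and rose by 2.01 ± 0.37 (SE) (adjusted p = 0.00381). Neither overlapped between tissues.

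Of 13 tested crypt stem cell genes 5 rose and 1 fell, with a median of 0.78. Lgr5, the receptor that marks crypt base stem cells, held 4.27, 8.33 and 14.8 FPKM in tumors and 1.02, 1.45, 1.68 and 0.474 FPKM in normal tissue, a difference of 2.2 ± 0.25 (SE) (adjusted p = 0.000498). Smoc2, a secreted calcium-binding protein of the same cells, held 28.4, 39.9 and 86.6 FPKM against 9.71, 13.8, 15.2 and 17.1 FPKM, a difference of 1.62 ± 0.29 (SE). Every tumor was above every normal library for both, and the highest values were those of KO-1-hetero tumor replicate 2. Msi1, an RNA-binding protein of progenitor cells, rose by 1.28 ± 0.36 (SE) from a low level, while Rgmb, a BMP co-receptor, fell by 0.64. Ascl2, a transcription factor needed by these stem cells, held 2.92, 7.64 and 20.5 FPKM in tumors and 4.75, 5.45 and 13.4 FPKM in normal tissue, ranges that overlapped. The count of 5 dropped to 2 without KO-1-hetero normal replicate 2, and to 3 without KO-1-hetero tumor replicate 1 or 2, KO-1-hetero normal replicate 1 or either KO-8-hetero normal library. There were 6 that rose and none that fell in the high-Xist fit.

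Of 12 tested genes of the Paneth-like antimicrobial list 8 rose and 1 fell, and the median was 3.46. Paneth cells are granular cells of the small intestinal crypt that the mouse colon normally lacks. Beside Defa24, Mmp7 and Lyz1, Defa17 held 7.12, 27.3 and 132 FPKM in tumors and 0.353, 0.138, 0.0995 and 0.235 FPKM in normal tissue. Pla2g2a, a secreted phospholipase that attacks bacterial membranes, held 119, 222 and 282 FPKM against 38.5, 36.9, 13.7 and 16.4 FPKM, a difference of 2.97 ± 0.32 (SE). All 5 were free of overlap. The alpha-defensins are near-identical copies on chromosome 8, and the split of fragments among them is uncertain. The member that fell was Reg4, a lectin of deep crypt secretory cells of the colon, at 293, 968 and 1722 FPKM in tumors and 2362, 1901, 1008 and 2026 FPKM in normal tissue. Its difference of -1.08 came to -0.68 with the length trend removed and then did not pass. With 1 library left out Reg4 passed only without KO-1-hetero tumor replicate 2, KO-8-hetero tumor replicate 1 or 2, or KO-8-hetero normal replicate 1. With the high-Xist tumors alone 9 rose and none fell.

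Of 6 tested metallothionein and zinc genes 3 rose and 1 fell. Mt3 and Mt2, which bind zinc and copper, held 16.1, 74.8 and 287 and 82.1, 105 and 371 FPKM in tumors. Normal tissue held 7.92, 11.3, 2.36 and 3.19 FPKM of Mt3 and 75.4, 55.4, 50.8 and 80.1 FPKM of Mt2, so that Mt3 rose by 3.55 ± 0.71 (SE) and Mt2 by 1.16 ± 0.36 (SE). Mt1 differed by -0.35 without passing. These 4 genes lie side by side on chromosome 8, yet their differences ran from -0.35 for Mt1 to 5.74 for Mt4. The zinc exporter Slc30a1 fell by 0.43, but with 1 library left out it passed only without KO-1-hetero tumor replicate 3 or KO-8-hetero normal replicate 2. The high-Xist fit had 2 members of this list rising and none falling.

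All 12 tested matrix metalloproteinases and inhibitors rose, with a median of 1.93. Mmp10 (stromelysin 2) held 28.8, 46.7 and 167 FPKM in tumors and 2.37, 1.31, 0.885 and 2.19 FPKM in normal tissue, a difference of 4.57 ± 0.42 (SE) (adjusted p = 0.000274). Mmp9, a gelatinase of neutrophils, held 2.77, 6.01 and 7.76 FPKM against 0.646, 0.33, 1.03 and 0.881 FPKM, and Mmp12, the macrophage elastase, held 5.29, 7.72 and 10.4 FPKM against 1.81, 0.712, 0.499 and 1.35 FPKM. Mmp2, a gelatinase of stromal cells, held 32.7, 50 and 92.7 FPKM against 13.8, 11.2, 17.9 and 21.4 FPKM. None of these overlapped. Mmp13, Mmp12, Mmp3, Mmp10 and Mmp7 stand in one cluster on chromosome 9 between bases 7272514 and 7699585 of GRCm38.p6, with Mmp8, which did not reach the filter. In the cluster the differences ran from 2.06 for Mmp12 to 6.46 for Mmp7. With any 1 library left out between 9 and 11 rose, and 7 rose in the high-Xist fit.

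Of 14 tested genes of fetal-like and repair epithelium, a state that injured gut lining takes on, 8 rose and none fell, with a median of 1.33. Clu (clusterin) held 113, 173 and 338 FPKM in tumors and 120.3, 55.2, 77.2 and 40.1 FPKM in normal tissue, a difference of 1.40 ± 0.29 (SE). Ly6a (Sca-1, a surface protein of this state) held 579, 951 and 1204 FPKM against 593, 335, 291 and 502 FPKM, a difference of 1.13 ± 0.28 (SE). Il33, an alarmin released from damaged cells, held 4.81, 9.55 and 23.9 FPKM against 2.69, 2.63, 4.3 and 3.14 FPKM. Il33 alone of the 3 was free of overlap, since 1 tumor lay below the highest normal library for each of the others. Anxa8, an annexin, held 62.5, 131 and 673 FPKM against 56.6, 19.9, 50.1 and 36.5 FPKM, and Krt7, a keratin of simple ducts, held 160.4, 269 and 572 FPKM against 121, 108, 105 and 181 FPKM. KO-8-hetero tumor replicate 2, the library with squamous genes, was the highest for Il33, Anxa8 and Krt7. Without it 9 of the 14 rose, 4 rose in the high-Xist fit, and 5 rose without KO-8-hetero normal replicate 2.

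**Figure D3:**
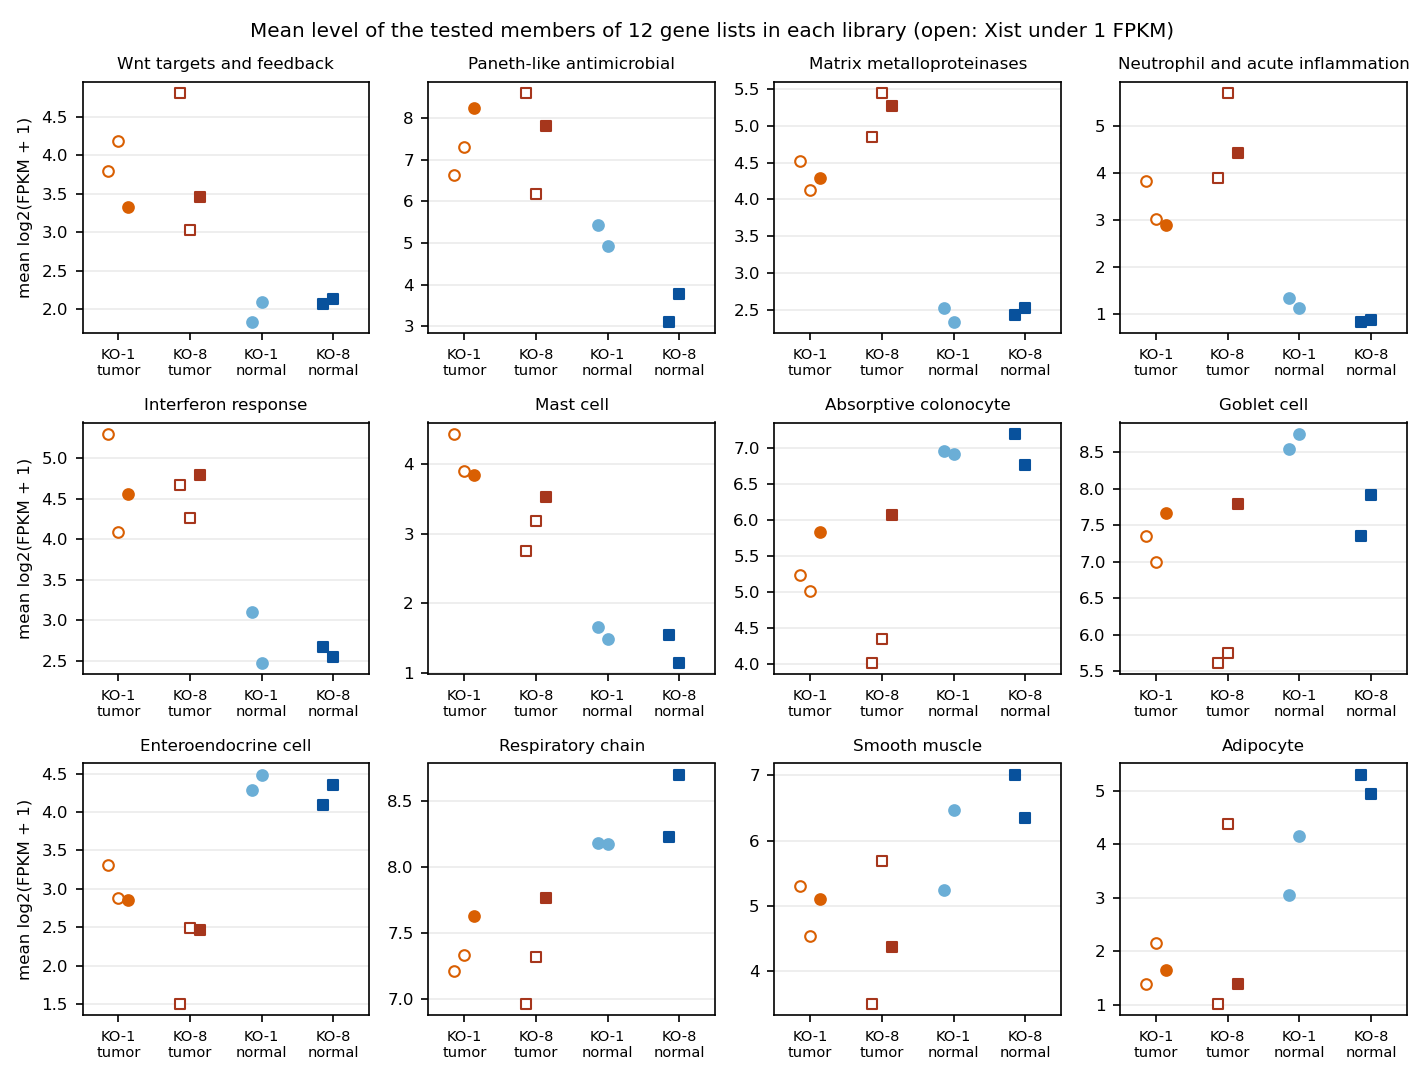
Mean log2(FPKM + 1) of 12 gene lists in each of the 6 tumor and 4 normal libraries, 1 point per library; open symbols mark libraries with Xist under 1 FPKM. Every tumor point lies above every normal point for the Wnt, Paneth-like, metalloproteinase, neutrophil, interferon and mast cell lists and below for the colonocyte, enteroendocrine and respiratory chain lists, while the goblet, smooth muscle and adipocyte lists overlap.

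No absorptive colonocyte gene rose and 11 of 19 fell, with a median of -1.46. Absorptive colonocytes take up salt and water at the surface of the colon. Car4, a membrane carbonic anhydrase of these cells, held 911, 625, 1107 and 816 FPKM in normal tissue and 2.74, 28.4 and 124 FPKM at the lowest, median and highest of the tumors, a difference of -5.04 ± 0.90 (SE) (adjusted p = 0.00345). Aqp8, a water channel, fell from 337, 309, 497 and 684 FPKM to 1.84, 18.1 and 90.4 FPKM. Slc26a3, the chloride and bicarbonate exchanger, fell from 317, 335, 592 and 443 FPKM to 2.93, 26.2 and 87.5 FPKM. All 3 were free of overlap, and for each of them KO-8-hetero tumor replicates 1 and 2 were the lowest and the 2 tumors with high Xist the highest. The high-Xist fit gave differences of -2.80, -2.51 and -2.26, against -5.04, -4.59 and -4.32 with all 6 tumors. Slc20a1, a phosphate transporter, held 57.1, 71.9, 132 and 81.7 FPKM in normal tissue and 16.4, 19 and 28.8 FPKM in tumors, and its difference was -1.93 with all tumors and -2.05 in the high-Xist fit. Slc6a14, an amino acid transporter, held 246, 256, 262 and 184 FPKM against 10.3, 50.1 and 54.8 FPKM, and Car2, the cytosolic carbonic anhydrase, held 1019, 977, 1172 and 960.5 FPKM against 87.8, 280.5 and 414 FPKM.

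Not all genes of this cell type moved. Car1 ranged from 149.6 to 1932 FPKM in tumors and from 858 to 1557 FPKM in normal tissue and did not pass. Krt20, a keratin of the mature surface epithelium, held 130.2, 271 and 665 FPKM in tumors and 232, 310.2 and 360.05 FPKM in normal tissue (lowest, median and highest). Guca2b (uroguanylin) differed by 0.08, while Guca2a (guanylin), the related peptide that stimulates fluid secretion, fell by 2.30. Of the 19, 9 fell in the high-Xist fit. Of 12 general epithelial genes 2 fell (1 in the high-Xist fit) and none rose: Cdx1, a homeobox factor of intestinal identity, by 1.83 and Lgals4, a galectin of the brush border, by 1.21.

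Of 15 tested goblet cell genes 10 fell and none rose, with a median of -1.18. Zg16, a lectin-like protein of the mucus layer, held 4849.9, 4203, 5021 and 7552 FPKM in normal tissue and 83.4, 733 and 1086 FPKM in tumors, a difference of -3.50 ± 0.65 (SE) (adjusted p = 0.00387). Tff3, the trefoil peptide of mucus, held 3109.6, 2869.6, 2742 and 4443 FPKM against 538, 1112 and 2018 FPKM, a difference of -1.66 ± 0.33 (SE). Atoh1, the transcription factor that commits cells to the secretory lineage, held 30.9, 42.1, 25.6 and 40.3 FPKM against 3.55, 16.6 and 20.9 FPKM. None of these overlapped. The main mucin Muc2 did not pass, at 217, 608 and 1508 FPKM in tumors and 193, 753 and 1562 FPKM in normal tissue. Creb3l1 and Ramp1, goblet cell genes of secretion and of peptide receptors, fell by 1.46 and 1.18 with some overlap. Of the 15 genes 6 fell without KO-8-hetero normal replicate 1 and 6 without KO-8-hetero normal replicate 2, and 4 fell in the high-Xist fit.

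Of 12 tested enteroendocrine genes 7 fell and none rose, with a median of -1.35. The fall was deepest for hormones of the colonic L cell. Insl5, an insulin-like peptide, held 299, 341, 251 and 544 FPKM in normal tissue and 1.26, 11.1 and 37.1 FPKM in tumors, a difference of -4.97 ± 0.54 (SE) (adjusted p = 0.000443). Gcg, which encodes glucagon-like peptides, held 104, 117, 76.8 and 88.9 FPKM against 0.957, 12.8 and 25.6 FPKM, a difference of -3.21 ± 0.55 (SE). Pyy (peptide YY) held 260.5, 221, 206 and 383 FPKM against 4.95, 42 and 80.9 FPKM, a difference of -2.95 ± 0.58 (SE). KO-8-hetero tumor replicate 1 was the lowest for all 3 hormones, and no tumor reached the normal range. Sst (somatostatin of D cells) held 6.01, 12.5, 11.6 and 19.9 FPKM against 0.172, 0.863 and 4.45 FPKM, and Scg5, a chaperone of secretory granules, held 4.01, 5.07, 5.33 and 6.62 FPKM against 0.472, 1.03 and 2.14 FPKM. In the high-Xist fit the count was 7 too, with differences of -4.84 for Insl5 and -3.02 for Pyy.

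The tuft cell list, of chemosensory cells, moved in both directions, with 2 of 8 tested members higher and 2 lower. Trpm5, their taste-type channel, held 2.57, 3.89, 1.09 and 2.08 FPKM in normal tissue and 0.147, 0.716 and 1.55 FPKM in tumors, which overlapped, and Ltc4s (leukotriene C4 synthase) held 4.11, 4.6, 3.85 and 5.46 FPKM against 1.45, 2.07 and 2.61 FPKM. Both fell, Ltc4s by 0.84 and by 0.30 without passing once the length trend was removed. Avil (advillin, of actin bundles), at 5.58, 9.93 and 47.8 FPKM in tumors against 2.26, 2.88, 1.13 and 2.18 FPKM, was among the rising members. Dclk1, the usual tuft cell marker, differed by -0.20 and did not pass. The count of 2 rising was 1 when KO-1-hetero tumor replicate 1 or 3, KO-1-hetero normal replicate 2, KO-8-hetero tumor replicate 1 or 3 or either KO-8-hetero normal library was left out. The high-Xist fit had 1 rising and none falling.

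Genes of energy metabolism fell in part. Of 16 genes of fatty acid oxidation and ketone synthesis, the main fuel use of colonocytes, 9 fell and none rose, with a median of -0.85. Acaa2, a mitochondrial thiolase, held 108, 116, 148 and 149 FPKM in normal tissue and 32.5, 46.4 and 70 FPKM in tumors, a difference of -1.44 ± 0.22 (SE). Slc16a1 (MCT1, which carries butyrate into the cell) held 70.4, 82.5, 94.4 and 63.1 FPKM against 12.5, 30.2 and 41 FPKM, a difference of -1.50 ± 0.29 (SE). Acadm and Acadvl, acyl-CoA dehydrogenases, fell by 0.85 and 0.94, and Ppara, the lipid-sensing receptor that induces such genes, fell by 0.74. These 5, named for their small p, were free of overlap. Over the whole list 7 of 16 lay wholly below normal tissue, against 12.7% of all genes tested. Of the 16 genes 2 fell in the high-Xist fit.

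Of 20 respiratory chain genes 16 fell and none rose, with a median of -0.99. Ndufb8, of complex I, held 379, 423, 456 and 859 FPKM in normal tissue and 133, 177 and 245 FPKM in tumors. Atp5o, of the ATP synthase, held 801, 776, 732 and 1235 FPKM against 232, 343 and 452 FPKM. Sdhb, Sdhc and Sdhd of complex II fell by 1.40, 1.09 and 1.05, while Sdha of the same complex differed by -0.34 and did not pass. KO-8-hetero normal replicate 2 was the highest library for all 5 of these genes that fell. With the length trend removed 15 of the 20 fell with a median of -0.79, and in the high-Xist fit none passed and the median was -0.62. Ribosomal protein genes, which are short, were added after the data were seen: 70 of 81 fell with a median of -0.98, and 59 fell and 2 rose with the length trend removed. None of the 81 passed in the high-Xist fit, where the median was -0.86, or with KO-8-hetero alone. After quantile normalization the median was -0.07. Rps27rt, an expressed retrocopy of the ribosomal gene Rps27 from which it cannot be cleanly separated, held 4987, 4803, 4323 and 10261 FPKM against 1726, 2323 and 2932 FPKM. Whether length alone moves these lists was not tested beyond this fit.

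Glycolysis and hypoxia genes showed no common direction, with 2 of 18 higher and 1 lower. Pfkfb3, which makes the activator of phosphofructokinase, held 6.28, 7.08 and 9.78 FPKM in tumors and 2.55, 1.88, 2.42 and 2.86 FPKM in normal tissue, a difference of 1.31 ± 0.13 (SE) (adjusted p = 0.000369). Slc16a3 (MCT4, the lactate exporter) held 10.4, 18.2 and 46.4 FPKM against 3.35, 2.53, 4.91 and 6.15 FPKM, a difference of 2.01 ± 0.22 (SE). Neither overlapped, and both passed in the high-Xist fit. The hexokinase Hk1 fell by 0.76, with overlap. It passed in 4 of the 10 fits without 1 library, namely those without KO-1-hetero tumor or normal replicate 1 or KO-8-hetero tumor replicate 1 or 2, and did not pass in the high-Xist fit.

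Of 20 tested genes of xenobiotic metabolism, the enzymes and pumps that handle foreign compounds, 14 fell and none rose, with a median of -1.54. Sult1a1, a phenol sulfotransferase, held 221, 238, 210.03 and 383 FPKM in normal tissue and 6.36, 16.8 and 34.2 FPKM in tumors, a difference of -4.06 ± 0.40 (SE) (adjusted p = 0.000369). Cyp2c68 and Cyp2c55, cytochromes P450 of a family with close copies, fell by 3.88 and 3.54, and Cyp2c68 is named for the size of its fall and is not on the list. Ces2a and Ces2c, carboxylesterases that are close copies as well, held 2.4, 11.8 and 21.6 and 2.79, 12.6 and 24.5 FPKM in tumors against 58.4, 54.4, 125 and 155 and 74.5, 68.8, 121 and 136 FPKM. Gstm1, a glutathione transferase, held 277, 293, 354 and 229 FPKM against 70.8, 91 and 119 FPKM, and Cyp3a13 held 38.9, 28.6, 48.2 and 40.9 FPKM against 2.84, 9.52 and 14.2 FPKM. All of these were free of overlap. In the high-Xist fit 11 of the 20 fell and 1 rose.

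Genes of inflammation rose together. Of 16 tested neutrophil and acute inflammation genes 15 rose, with a median of 2.52. S100a8 and S100a9, which form calprotectin in neutrophils and inflamed epithelium, held 29.8, 86.8 and 841 and 26, 77.1 and 838 FPKM in tumors against 3.57, 5.08, 2.06 and 1.15 and 2.51, 4.5, 1.86 and 2.77 FPKM in normal tissue. The highest value of each was that of KO-8-hetero tumor replicate 2, the library with squamous genes, and the next were 168 and 197 FPKM. Cxcl5, a chemokine that draws neutrophils, held 12.6, 34.1 and 145 FPKM against 2.06, 0.935, 0.672 and 0.884 FPKM, a difference of 4.20 ± 0.47 (SE) (adjusted p = 0.000493). Il1b, the cytokine interleukin-1 beta, held 22.8, 45 and 96.6 FPKM against 6.71, 4.46, 1.34 and 2.44 FPKM, a difference of 3.33 ± 0.44 (SE). Lcn2, which withholds iron from bacteria, held 22.7, 102 and 158 FPKM against 5.39, 4.75, 6.16 and 3.15 FPKM. Csf3r, the receptor by which neutrophils are marked, held 2.51, 5.66 and 12.4 FPKM against 0.712, 0.282, 0.355 and 0.36 FPKM. No tumor overlapped normal tissue for these 6 genes. Ptgs2 (COX-2) differed by 1.48 and did not pass. The high-Xist fit had 14 rising.

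Of 14 tested macrophage genes 11 rose, with a median of 1.15. Spp1 (osteopontin) held 8.36, 21.7 and 28.8 FPKM in tumors and 1.02, 0.45, 2.53 and 0.729 FPKM in normal tissue, a difference of 3.26 ± 0.32 (SE) (adjusted p = 0.000369). Itgam (CD11b) held 5.78, 8.9 and 11.2 FPKM against 3.19, 1.85, 2.25 and 1.54 FPKM, and Cd68, of macrophage lysosomes, held 27.2, 27.8 and 35.4 FPKM against 17.4, 8.04, 12.6 and 10.7 FPKM. Ccl2, a chemokine for monocytes, and its receptor Ccr2 rose by 2.24 ± 0.43 (SE) and 1.14 ± 0.18 (SE). None of these overlapped. Of the 14, 7 rose in the high-Xist fit.

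Of 12 tested T cell and cytotoxic genes 8 rose, with a median of 0.92. Gzmb (granzyme B, which cytotoxic cells release) held 2.97, 4.92 and 5.75 FPKM in tumors and 1.07, 0.319, 0.347 and 0.484 FPKM in normal tissue, a difference of 1.85 ± 0.20 (SE) without overlap. Foxp3, the factor of regulatory T cells, and Ctla4, an inhibitory receptor, rose by 0.87 ± 0.21 (SE) and 1.22 ± 0.25 (SE). Zap70 and Gzma rose by 1.44 ± 0.32 (SE) and 1.50 ± 0.38 (SE). The ranges of these last 4 genes overlapped, because KO-8-hetero tumor replicate 2 held little of them and KO-1-hetero normal replicate 1 held more than the other normal libraries. The count of 8 dropped to 4 without KO-1-hetero normal replicate 2 and reached 11 without KO-8-hetero tumor replicate 2, and it was 10 in the high-Xist fit. B and plasma cell genes did not move as a list, with 1 of 14 lower (the B cell surface protein Ms4a1, by 1.25) and a median of -0.23. Ms4a1 passed only without KO-1-hetero tumor replicate 1, KO-1-hetero normal replicate 2 or KO-8-hetero tumor replicate 1 when 1 library was left out. Without KO-8-hetero tumor replicate 2 the B and plasma cell counts were 3 higher and 0 lower, without KO-1-hetero tumor replicate 1 they were 0 and 3, and the high-Xist fit had 1 lower.

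Of 9 tested mast cell genes 7 rose, with a median of 2.33. Cpa3, the carboxypeptidase of mast cell granules, held 2.07, 12.2 and 17.4 FPKM in tumors and 0.766, 0.309, 0.833 and 0.363 FPKM in normal tissue, a difference of 2.75 ± 0.40 (SE) (adjusted p = 0.00137). Fcer1a, of the IgE receptor, held 0.703, 3.69 and 6.13 FPKM against 0.37, 0.271, 0.321 and 0.0321 FPKM, and the tryptase Tpsb2 held 1.9, 11.8 and 19.7 FPKM against 0.88, 1.59, 1.52 and 1.17 FPKM. These 3 were free of overlap and lowest in KO-8-hetero tumor replicate 1. Mcpt2, a protease of mucosal mast cells, held 2.13, 43.7 and 162 FPKM against 3.81, 2.23, 2.09 and 0.791 FPKM, and overlapped through KO-8-hetero tumor replicate 2. It is a close copy of Mcpt1, so the split between them is uncertain. Hdc, which makes histamine, rose by 1.91 ± 0.32 (SE). Kit, the stem cell factor receptor of mast cells and pacemaker cells, differed by -0.50 and did not pass. The high-Xist fit also had 7 rising.

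Of 20 interferon response genes 18 rose, with a median of 1.90. Ido1, the interferon-induced enzyme that breaks down tryptophan, held 4.87, 63.2 and 194 FPKM in tumors and 1.77, 1.36, 2.22 and 2.32 FPKM in normal tissue, a difference of 4.10 ± 0.63 (SE). Ifit2, an antiviral protein, held 8.62, 24.4 and 32.4 FPKM against 3.26, 2.1, 1.25 and 1.62 FPKM, a difference of 2.91 ± 0.34 (SE) (adjusted p = 0.000575). The interferon-inducible GTPases Igtp and Gbp3 held 24.3, 57.9 and 105 and 14.2, 24.6 and 35.5 FPKM against 14.5, 11.5, 10.6 and 8.71 and 7.47, 3.65, 4.13 and 2.17 FPKM. None of these 4 overlapped, and KO-1-hetero tumor replicate 2 was the lowest tumor for Ido1, Igtp and Gbp3. The members that did not pass were Oas1a and Irf7. There were 13 that rose in the high-Xist fit.

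Antigen presentation was less uniform. Of 12 genes of MHC class I and the immunoproteasome, which cut and display peptides to T cells, 4 rose and the median was 0.64. Nlrc5, the transactivator of class I genes, held 2.77, 8.01 and 13.6 FPKM in tumors and 1.45, 0.903, 0.851 and 0.386 FPKM in normal tissue, a difference of 2.13 ± 0.34 (SE) without overlap. H2-Q7, a nonclassical class I gene with close copies, held 22, 85.3 and 132 FPKM against 14.8, 12.4, 9.91 and 11 FPKM. Tap1, the peptide transporter, rose by 1.58 ± 0.30 (SE) with overlap. The high-Xist fit also had 4 class I members rising. Of 9 MHC class II genes only the transactivator Ciita rose, by 1.10 ± 0.34 (SE), and the median was 0.86. Cd74, the class II chaperone, ranged from 273 to 1799 FPKM in tumors and from 246 to 593 FPKM in normal tissue. Without KO-8-hetero tumor replicate 2, or in the high-Xist fit, 6 of the 9 class II genes rose. Without KO-1-hetero tumor replicate 2 there were 2, and Ciita did not pass without any 1 of the other 8 libraries.

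In the stroma, muscle and matrix genes went in opposite directions. Of 16 tested smooth muscle genes 11 fell and none rose, with a median of -1.33. Casq2, a calcium-storing protein, held 8.63, 10.6, 15.7 and 8.77 FPKM in normal tissue and 0.702, 1.07 and 4.25 FPKM in tumors, a difference of -2.26 ± 0.32 (SE) (adjusted p = 0.00121). Cnn1 (calponin), Tagln (transgelin) and Des (desmin) fell by 2.67, 1.96 and 2.83. Actg2, the enteric muscle actin, held 223, 575, 736 and 553 FPKM in normal tissue and 32.2, 145 and 219 FPKM in tumors, with KO-8-hetero tumor replicate 1 the lowest. KO-1-hetero normal replicate 1 was the lowest normal library for Cnn1, Tagln, Actg2 and Des. Myh11, the smooth muscle myosin, did not pass, at 24.6, 63.5 and 137 FPKM in tumors and 61.8, 127 and 381 FPKM in normal tissue. The count of 11 dropped to 3 without KO-8-hetero normal replicate 1 or 2, to 4 without KO-1-hetero normal replicate 2 and to 6 without KO-8-hetero tumor replicate 3, and it was 6 in the high-Xist fit. How much muscle each piece of tissue included is not given in the labels.

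Of 19 tested fibroblast and matrix genes 12 rose and 1 fell, with a median of 0.95. Col3a1 and Col1a2, fibrillar collagens, held 122, 167 and 235 and 50.9, 53.9 and 72.4 FPKM in tumors against 43.9, 48, 67.9 and 84.7 and 17.9, 20.2, 25.5 and 38.1 FPKM in normal tissue. They rose by 1.44 ± 0.16 (SE) and 1.20 ± 0.19 (SE). Col12a1, a collagen that lies on such fibrils, held 7.46, 12.1 and 21.4 FPKM against 2.6, 2.94, 2.74 and 1.47 FPKM. Inhba (activin A) held 1.95, 4.27 and 12.9 FPKM against 0.446, 0.487, 0.234 and 0.0806 FPKM, a difference of 2.08 ± 0.34 (SE), and Pdgfrb, the receptor that marks pericytes and fibroblasts, rose by 0.94 ± 0.15 (SE). All 5 were free of overlap. The member that fell was Postn (periostin), by 0.82. Postn did not pass without KO-1-hetero tumor replicate 1 or 2, either KO-1-hetero normal library or KO-8-hetero normal replicate 1. With the high-Xist tumors alone 8 rose.

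Of 8 tested adipocyte genes 6 fell, with a median of -2.72. Adipoq (adiponectin) held 4.59, 14.7, 31 and 27.3 FPKM in normal tissue and 0.0235, 0.162 and 4.91 FPKM in tumors, a difference of -3.33 ± 0.55 (SE). Fabp4, a fatty acid carrier of fat and vessels, held 90.3, 127, 208 and 226 FPKM against 9.67, 24.3 and 88.2 FPKM, without overlap. For Adipoq the ranges overlapped through KO-8-hetero tumor replicate 2, the tumor with the highest level of both genes. Of 13 tested endothelial genes 4 rose, with a median of 0.34: Prox1, described above, Esm1 by 0.98 ± 0.21 (SE), Vwf by 0.72 ± 0.18 (SE) and Cdh5 by 0.65 ± 0.17 (SE). Vwf did not pass with the length trend removed. In the high-Xist fit 5 adipocyte genes fell and 2 endothelial genes rose. Of 11 tested genes of enteric neurons and glia, S100b of glia and Prph of neurons fell by 0.90 and 1.33, while Ret, the receptor tyrosine kinase of the enteric nervous system, rose by 1.00 ± 0.17 (SE). In the list of interstitial cells of Cajal, the pacemaker cells of the gut, Slc4a4 and Thbs4 fell and Gja1 (connexin 43) rose, and the defining genes Kit and Ano1 did not pass. Gja1 did not pass without KO-1-hetero tumor replicate 1, KO-1-hetero normal replicate 2 or either KO-8-hetero normal library, nor Thbs4 without KO-8-hetero normal replicate 2. Without KO-1-hetero normal replicate 1 or KO-8-hetero tumor replicate 2, 4 neuron and glia genes fell. The high-Xist fit had 1 neuron and glia gene higher and 3 lower, and 1 gene of the Cajal list lower.

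Over both sets together, genes of dividing cells and damage responses differed little in their medians. Of 19 proliferation genes 4 rose and 1 fell, with a median of 0.40. That value joins unlike sets, with a median of -0.11 for KO-1-hetero against 0.89 for KO-8-hetero. The mean log2 level of the list was 4.43, 4.65 and 4.74 in the KO-8-hetero tumors, above the 3.83 and 3.72 of their normal tissue. The KO-1-hetero tumors, at 4.32, 4.27 and 4.60, overlapped their normal tissue, at 4.46 and 4.53. No member passed the test of the difference between the sets. Rrm2, of ribonucleotide reductase, held 17.3, 18.9 and 28.8 FPKM in tumors and 9.89, 10.3, 7.67 and 4.95 FPKM in normal tissue, a difference of 1.31 ± 0.22 (SE) (adjusted p = 0.00279) without overlap. Aurkb, Plk1 and Mcm3, which act in mitosis and in replication, rose by 0.57, 0.48 and 0.38, each with overlap, and Tyms (thymidylate synthase) fell by 0.43. Mki67, the proliferation marker Ki-67, held 16.4, 25.9 and 29.5 FPKM in tumors and 5.44, 15.4 and 25.9 FPKM in normal tissue and did not pass. The count of 4 dropped to 1 without either KO-1-hetero tumor replicate 1 or 3, KO-8-hetero tumor replicate 1 or 3, or KO-8-hetero normal replicate 1, and to 2 without KO-8-hetero tumor replicate 2 or KO-8-hetero normal replicate 2. Tyms did not pass without any 1 of the KO-1-hetero libraries or KO-8-hetero tumor replicate 1. The high-Xist fit had 1 proliferation gene rising and none falling. Of 20 p53 targets 6 rose and none fell, with a median of 0.35. Phlda3, an inhibitor of Akt signalling, and Mdm2, the ligase that degrades p53, held 14.4, 23.5 and 39.6 and 14.5, 18.6 and 20 FPKM in tumors against 5.5, 7.81, 8.85 and 14.6 and 11.6, 9.53, 9.98 and 2.91 FPKM. Tnfrsf10b, a death receptor, rose by 0.78 ± 0.14 (SE). Cdkn1a (p21), the classical target, differed by -0.02. In the high-Xist fit none of the 20 passed.

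Growth factor genes moved by member. Among 12 tested genes of the EGF family the ligands Nrg1, Ereg, Tgfa, Btc and Hbegf rose, and Lrig1 and Erbb2 fell. Nrg1 (neuregulin) held 2.07, 4.65 and 7.83 FPKM in tumors and 1.27, 0.787, 0.34 and 0.382 FPKM in normal tissue, a difference of 1.70 ± 0.30 (SE). Ereg (epiregulin), Tgfa and Btc rose by 1.77 ± 0.49 (SE), 0.96 ± 0.19 (SE) and 0.94 ± 0.18 (SE), and the inhibitor Lrig1 fell by 0.68. Without KO-8-hetero normal replicate 2 the counts were 3 and 0, and in the high-Xist fit 4 and 0. Erbb2 passed only without KO-1-hetero tumor or normal replicate 1 when 1 library was left out, and Lrig1 did not pass without KO-1-hetero normal replicate 2 or either KO-8-hetero normal library. Among 15 tested BMP pathway genes 5 rose and 1 fell. Bmp7 held 5.48, 11.1 and 14.8 FPKM against 1.3, 1.65, 1.93 and 1.85 FPKM, a difference of 2.09 ± 0.22 (SE) (adjusted p = 0.000443), and Bmp4 rose by 1.26 ± 0.20 (SE). Bmp2, a ligand of the upper crypt, held 8.61, 8.53, 14.8 and 16.5 FPKM in normal tissue and 3.57, 5.1 and 7.19 FPKM in tumors and fell by 1.07. These 3 were free of overlap. Without KO-8-hetero normal replicate 2 the BMP counts were 2 and 3, and without KO-8-hetero tumor replicate 2 they were 3 and 4. Without KO-1-hetero normal replicate 1 they were 3 and 2, without KO-1-hetero tumor replicate 1 or 3 or KO-1-hetero normal replicate 2 the higher count was 3, and in the high-Xist fit they were 3 and 1.

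Among 9 tested claudins, the proteins that seal cell contacts, Cldn4 rose and Cldn8 fell. Cldn4 held 49.1, 114 and 246 FPKM in tumors and 14.8, 14.3, 10.3 and 19.6 FPKM in normal tissue, a difference of 2.96 ± 0.33 (SE) (adjusted p = 0.000493) without overlap. Cldn8, a claudin of the distal colon that tightens sodium barriers, fell by 1.37. In the high-Xist fit 1 claudin rose and 1 fell, and without KO-8-hetero tumor replicate 3 or KO-8-hetero normal replicate 2 there were 2 that fell. Among 12 tested Hox genes of the distal gut, which keep a record of position along the body, Hoxb13 held 183, 191, 392 and 697 FPKM in normal tissue and 16.3, 111 and 160.4 FPKM in tumors and fell by 2.04, and Hoxa9 rose by 0.59. Hoxb13 did not pass with the length trend removed, nor without KO-1-hetero tumor replicate 3, KO-1-hetero normal replicate 2, KO-8-hetero tumor replicate 2 or either KO-8-hetero normal library. With 1 library left out Hoxa9 passed only without KO-8-hetero tumor replicate 1 or 2 or KO-8-hetero normal replicate 2. The high-Xist fit had 3 Hox genes higher and 3 lower. Where along the colon each piece was taken is not given. Of 13 tested clock genes only Dbp, an output factor of the clock, passed. Dbp held 1.61, 2.04, 50 and 91.4 FPKM in normal tissue and 1.93, 1.58 and 1.15 (KO-1-hetero) and 8.37, 8.91 and 6.35 (KO-8-hetero) FPKM in tumors, so that the KO-8-hetero libraries were above the KO-1-hetero libraries in both tissues. Dbp did not pass without KO-8-hetero tumor replicate 1 or 3 or either KO-8-hetero normal library, and no clock gene passed in the high-Xist fit. Without KO-1-hetero normal replicate 1 there were 4 clock genes that fell, and without KO-1-hetero tumor replicate 1 there were 2. The time of day of sampling is not given.

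Of 8 tested genes reported elsewhere as c-MAF targets 4 rose and 3 fell. Ccr1, a chemokine receptor of myeloid cells, held 7.05, 10.4 and 11.9 FPKM in tumors and 4.6, 1.98, 3.03 and 2.61 FPKM in normal tissue, a difference of 1.46 ± 0.20 (SE). Icos, a costimulator of T cells, rose by 1.00 ± 0.21 (SE). Crip1, a small LIM domain protein, held 2011, 1881, 1969 and 3715 FPKM in normal tissue against 577, 718 and 1363 FPKM in tumors and fell. Itgb7, an integrin of gut-homing lymphocytes, and Ccnd2 (cyclin D2) rose by 0.88 and 0.74, and Gcg, described above, also fell. Of the 8, 3 were higher and 3 lower in the high-Xist fit. Of 16 listed genes of other gut sites and squamous epithelium 9 did not reach the filter, and Cela1 (an elastase) and Fabp6 (an ileal bile acid carrier) fell by 2.39 and 1.78. Of the 7 tested gut site and squamous genes 1 rose and 2 fell in the high-Xist fit.

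With the term for high Xist the medians of the lists were those of the high-Xist fit, and fewer members passed. Of the rising lists it had 5 of 24 Wnt genes, 2 of 13 crypt stem cell genes, 5 of 12 Paneth-like genes, 6 of 12 metalloproteinase genes and 1 of 14 fetal-like genes higher. The immune lists had 9 of 16 neutrophil, 6 of 14 macrophage, 6 of 12 T cell, 4 of 9 mast cell and 10 of 20 interferon genes higher, and the fibroblast list 6 of 19. Of the falling lists 4 of 19 colonocyte, 5 of 12 enteroendocrine, 6 of 20 xenobiotic and 2 of 8 adipocyte genes were lower. No goblet, respiratory chain or ribosomal protein gene passed in it, and 1 of 16 fatty acid genes and 1 of 16 smooth muscle genes were lower. Each of the other lists had at most 3 members past the threshold in either direction. What part sex has in these differences was not tested beyond these fits.

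**Figure D4:**
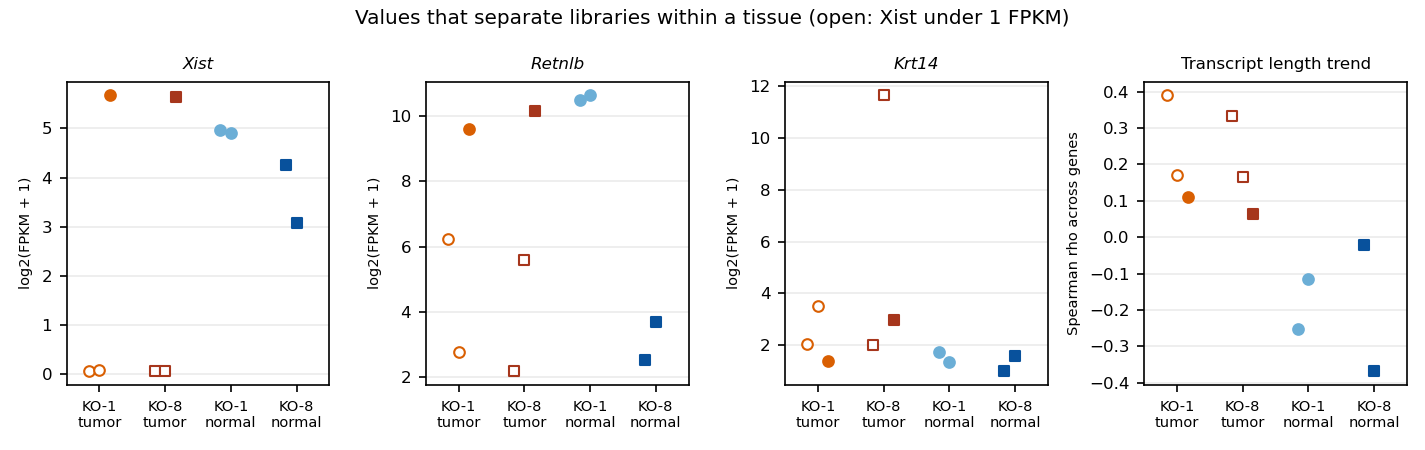
Xist, Retnlb and Krt14 as log2(FPKM + 1) and Spearman's rho between deviation and transcript length, for each of the 6 tumor and 4 normal libraries; open symbols mark libraries with Xist under 1 FPKM. Xist divides the tumors into 4 low and 2 high, Krt14 reaches 3173 FPKM in KO-8-hetero tumor replicate 2 alone, and rho is above 0 in every tumor and below 0 in every normal library.

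The median SD of log2(FPKM + 1) within a set was 0.23 over the 6 tumors and 0.276 over the 4 normal libraries. Among genes with a mean of at least 10 FPKM in tumors, the largest SDs belonged to Krt14, Krt13, Krt4, Krt10, Lgals7, Dmkn, Retnlb and Reg3b. The first 6 are genes of stratified squamous epithelium, as in skin or the anal canal. Krt14, a keratin of its basal layer, measured 3.06, 3173 and 6.8 FPKM in the KO-8-hetero tumors and 3.19, 10.4 and 1.65 FPKM in the KO-1-hetero tumors, and at most 2.35 FPKM in normal tissue. Krt13 and Krt4, keratins of moist squamous lining, measured 3230.4 and 1299.7 FPKM there, in KO-8-hetero tumor replicate 2, and Krt10, of cornifying skin, 936 FPKM. The highest of the other 5 tumors held 11, 6.26 and 1.45 FPKM. Lgals7 and Dmkn, also of such epithelium, measured 818 and 828 FPKM there. Without that library 3971 genes differed between tissues, against 4222 with it, and 3662 genes were called in both. The total thus changed less than the genes that made it up.

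Retnlb, a goblet cell protein that acts against bacteria and helminths, measured 74.8, 5.79 and 769 FPKM in the KO-1-hetero tumors and 3.56, 47.4 and 1125 FPKM in the KO-8-hetero tumors. Normal tissue held 1419, 1583, 4.75 and 12.1 FPKM. Retnlb was thus high in both tumors with high Xist and in normal tissue of the KO-1-hetero set, and low in that of the KO-8-hetero set. Reg3b, a lectin of the intestinal defence against bacteria, measured 4.95, 1.04 and 340.5 and 12.7, 98.5 and 1005 FPKM in the tumors of the 2 sets, and 111, 25.8, 0.822 and 1.13 FPKM in normal tissue, again highest in both tumors with high Xist. The tumor and normal ranges of both overlapped, neither passed, and their differences were -0.75 ± 1.85 (SE) and 2.02 ± 1.85 (SE).

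The tumor-normal difference was then set between the 2 sets. No gene passed (0%) the test of the difference between KO-8-hetero and KO-1-hetero in limma, while 1686 of 13106 had an unadjusted p under 0.05. In simulated data of this design, 200 of 13106 genes were changed and noise was drawn independently for each gene. There 4.35% of genes with a difference of 1 on the log2 scale and 52.5% of those with a difference of 2 were recovered. Modest differences were thus mostly not detectable in that setting. The smallest p belonged to Naaladl1, a peptidase of the brush border, and Slc36a1, a proton-coupled amino acid transporter. Naaladl1 held 3.33, 2.91 and 2.38 FPKM in tumors of KO-1-hetero and 0.97, 0.717 and 0.832 FPKM in those of KO-8-hetero, and 13.6 and 15.6 and 33.2 and 51 FPKM in their normal tissue. Its difference of differences was -2.50 (adjusted p = 0.105). Slc36a1 held 13.4, 10 and 7.42 and 8.64, 6.2 and 6.42 FPKM in the tumors and 10.2 and 11.4 and 50.6 and 59 FPKM in normal tissue, and its value was -2.69 (adjusted p = 0.105). For Slc36a1 the sets differed mainly in normal tissue. For Naaladl1 they differed in both tissues, with KO-8-hetero lower in tumors and higher in normal tissue. With KO-8-hetero normal replicate 1 left out 1368 genes passed, with KO-8-hetero tumor replicate 3 left out 9, with KO-8-hetero tumor replicate 2 left out 2 and with any other library left out 0. The count thus hangs on single libraries.

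**Figure D5:**
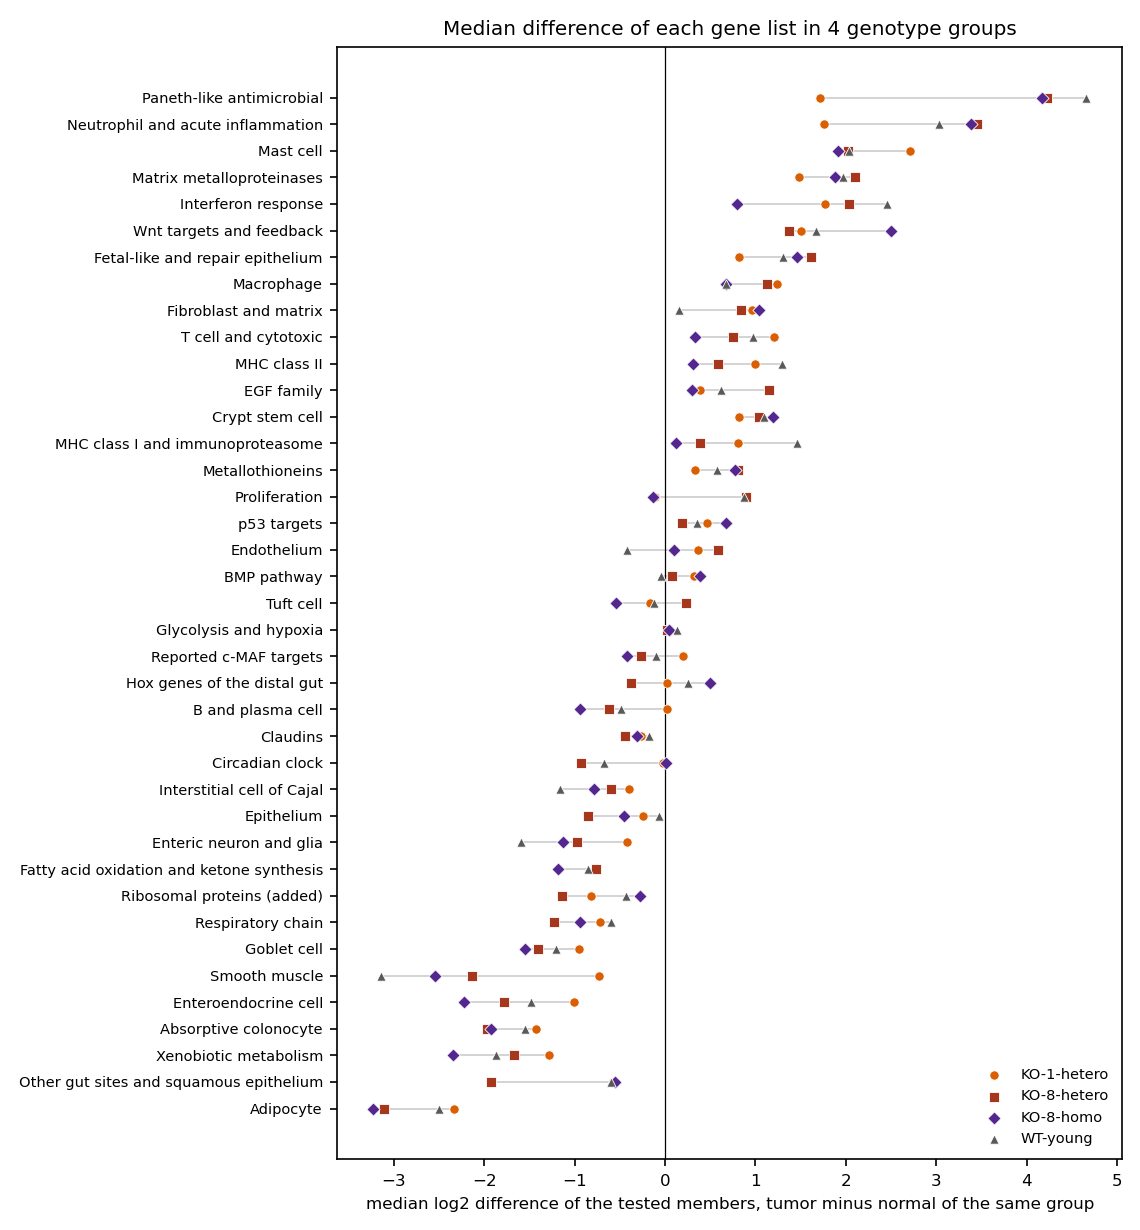
Median log2 fold change, tumor minus normal, of each gene list, 1 point for each of 4 groups: both heterozygous sets, KO-8-homo and WT-young. The Wnt, neutrophil and mast cell lists lie above 0 and the colonocyte and smooth muscle lists below 0 in all 4 groups.

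Each group has its own normal libraries, and its tumor-normal values are set side by side here. All 11 KO-8-homo and WT-young libraries, tumor and normal, held 0.0276 to 0.0719 FPKM of Xist and 7.83 to 11.4 FPKM of Ddx3y, as male tissue does, whereas the 4 heterozygous normal libraries and 2 of the 6 heterozygous tumors had the transcripts of female tissue. Sex and group thus cannot be told apart in normal tissue, which bears on each comparison of the heterozygous libraries with KO-8-homo and WT-young below. In 1 model of 21 libraries 1889 genes passed for KO-1-hetero (14.4%) and 5777 for KO-8-hetero (44.1%). Fitted alone these sets had the reverse order, at 2928 (22.3%) and 836 (6.38%), so which set had more calls depends on the model. In the model of 21 libraries KO-8-homo had 2914 (22.2%) and WT-young 3364 (25.7%). The median of the Wnt list was 1.50, 1.38, 2.50 and 1.67 in these 4 groups in that order, and that of the colonocyte list -1.43, -1.97, -1.93 and -1.54. The neutrophil list had medians of 1.76, 3.46, 3.39 and 3.03, the interferon list 1.77, 2.04, 0.80 and 2.45 and the smooth muscle list -0.73, -2.13, -2.54 and -3.14. Proliferation genes had medians of -0.11, 0.89, -0.13 and 0.87.

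No gene passed (0%) the test of the difference between the heterozygous and the WT-young tumor-normal difference in limma, while 2047 had an unadjusted p under 0.05. The smallest p belonged to Cenpp, a centromere protein, at -1.50 (adjusted p = 0.14), and to Peg13, an imprinted noncoding RNA, at 0.90 (adjusted p = 0.14). Cenpp held 3.88, 6.27 and 7.71 FPKM in the heterozygous tumors and 9.23, 10.8, 9.0 and 11 FPKM in their normal tissue, and a mean of 10.2 FPKM in tumors and 5.16 FPKM in normal tissue of WT-young. Peg13 held 4.72, 6.05 and 7.78 FPKM and 3.91, 5.23, 7.74 and 9.13 FPKM in the heterozygous tissues, against means of 4.14 and 8.98 FPKM. With 1 library left out the count was 1221 without KO-8-hetero normal replicate 1, 403 without WT-young normal replicate 2, 20 without WT-young normal replicate 1, 1 without KO-8-hetero tumor replicate 2 and 0 otherwise.

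Against KO-8-homo 46 genes passed (0.351%), 23 with a higher and 23 with a lower tumor-normal difference in the heterozygous libraries (0.175% each). Pla2g2f, a secreted phospholipase, held 43.6, 45.4, 32.4 and 59.3 FPKM in heterozygous normal tissue and 19.8, 26.8 and 39.7 FPKM in heterozygous tumors. In KO-8-homo it held a mean of 5.49 FPKM in normal tissue and 36.2 FPKM in tumors, so that the differences of the groups differed by -3.27 (adjusted p = 0.0027). Reg4 and Sval1, a seminal vesicle antigen-like gene expressed in the colon, showed the same sign. The KO-8-homo means of Reg4 were 60.2 FPKM in normal tissue and 1005 FPKM in tumors, and those of Sval1 89 and 592 FPKM. The heterozygous Reg4 values stand above, and Sval1 held 1450.4, 1236, 1333 and 2768 FPKM in heterozygous normal tissue and 141, 346 and 1025 FPKM in heterozygous tumors. The differences were -5.09 for Reg4 and -5.09 for Sval1.

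Of the genes with the opposite sign, Lpin2, a phosphatidate phosphatase, rose in heterozygous tumors from 4.7, 4.86, 3.92 and 2.12 FPKM to 7.14, 8.18 and 11.1 FPKM, while KO-8-homo means were 15.3 FPKM in normal tissue and 6.53 FPKM in tumors, a difference of 2.06. Slc35d1, a nucleotide sugar transporter, gave 1.77, with KO-8-homo means of 16.1 and 3.82 FPKM. For all 5 genes the KO-8-homo normal libraries, with male transcripts, lay outside the range of the 4 heterozygous normal libraries, with female transcripts. The tumor ranges of both groups overlapped, except that the KO-8-homo tumors held slightly less Lpin2. The count of 46 fell to 0 without KO-8-homo normal replicate 1, rose to 1240 without KO-8-hetero normal replicate 1, to 240 without KO-8-hetero tumor replicate 1, to 95 without KO-1-hetero tumor replicate 2 and to 86 without KO-8-hetero tumor replicate 2, was 43 without KO-8-hetero tumor replicate 3, and lay between 8 and 18 without any 1 of the other 9 libraries.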

How the data were processed

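Poly(A) RNA of mouse colorectal tissue was sequenced, with TruSeq Stranded mRNA libraries per the labels. The authors deposited one table per library with FPKM per gene symbol, already normalized to transcript length and library size. Per the submitters' processing notes TopHat2 2.1.1, Bowtie2 2.2.8, SAMtools 0.1.18, Cuffdiff 2.2.1 and mm10 were used, in an order not given in the sources used here. Read totals are not given, so no count test was run, and precision is read from the spread between libraries. FPKM sums ranged from 450172 to 577038 in tumors and from 688535 to 1016810 in normal tissue, so levels are relative to each library's other genes.

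Groups followed the titles. Values were taken as log2(FPKM + 1), which understates changes of low genes, for the 13106 genes with at least 1 FPKM in at least 4 of the 10 libraries, and 11240 genes were left out. limma 3.58.1 (lmFit, contrasts.fit, eBayes with trend) in R 4.3.3 fitted tumor against normal with the leading number as a block, two-sided, and Benjamini-Hochberg adjustment ran over all genes tested, with a threshold of 0.05. Adjusted p-values are limma's unless stated, and fold changes are differences of log2(FPKM + 1). Differences between groups were contrasts in the same model, over 10 libraries within the heterozygous sets and over 21 with KO-8-homo and WT-young. The exact permutation test ran over all splits of 10 libraries, two-sided (SciPy 1.17.1). Simulated data had 200 of 13106 genes changed and noise drawn independently for each gene. There the tumor-normal fit recovered 66.6% of genes changed by 1 on the log2 scale and 93.7% of those changed by 2. Of its calls 5.34% were false. In the real libraries 4222 genes passed, and shifts such as the length trend are shared by many genes. These percentages are therefore not error rates of the calls reported. No 2 libraries held identical values.

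Genes were named by rule: the 12 largest rises and falls without overlap of the groups and with a mean of at least 10 FPKM in the higher group, the 4 largest of each by mean FPKM, up to 5 of each list by smallest p, up to 5 for each difference between groups, the 8 most variable in tumors, and Maf, its relatives, Wwox, Xist and Ddx3y. Clone-named genes were left out of the first set. Other genes named, mainly list members that did not pass, Sp5 and Tnfrsf19, were chosen after their values were seen. The members and lists were chosen with earlier results of these data known. Promoters came from RefSeq and transcript lengths, available for 13032 of the tested genes, from GENCODE M21. Alternatives covered the pseudocount, filter, centring, block, each library left out, each set alone, Xist and transcript length, the last added after the data were seen. WT-old libraries were not used here. Some members of the lists are counted but not reported by name here.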

Additional observations from a re-analysis of the deposited data

Results flagged for a closer look

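In 166 groups of 4 to 10 values, 1 library stood far from the others in 22, judged by its gap to the nearest value as a share of the group's range. The gap of a gene was taken in FPKM and not on the log2 scale, so no rate by chance is given. The 8 genes most variable in tumors were chosen for such spread, and without their 16 groups 14 of 150 remained. Other genes were chosen by their values too, so neither count is set against chance. KO-8-hetero tumor replicate 2 was that library in 12 of the 22 and in 6 of the 14. Its gap was 0.997 for Krt14, 0.999 for Krt10, 0.998 for Krt13, 0.996 for Krt4, 0.999 for Lgals7 and 0.999 for Dmkn, the squamous genes, and 0.830 for S100a8, 0.789 for S100a9 and 0.676 for S100a11, also high there. The mean levels of the fetal-like list (0.733), the adipocyte list (0.664) and the list of other gut sites and squamous epithelium (0.784) stood apart in the same library.

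In KO-8-hetero normal replicate 2 the gap was 0.837 for Sult1a1, 0.888 for Rps27rt and 0.891 for the respiratory chain list, each high. In KO-8-hetero normal replicate 1 it was 0.870 for Tgm3 and 0.941 for the list of fatty acid oxidation, both high. Single values stood apart for Reg3b in KO-8-hetero tumor replicate 3 (0.662, high), Mafg in KO-8-hetero tumor replicate 1 (0.801, high), Lgals7 in KO-1-hetero normal replicate 1 (0.864, low), the p53 list in KO-1-hetero tumor replicate 3 (0.690, low) and the T cell list in KO-1-hetero normal replicate 1 (0.854, high).

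The tumor-normal difference departed from that of KO-8-homo, by the limma test of the difference, for Pla2g2f (-3.27), Reg4 (-5.09), Sval1 (-5.09), Lpin2 (2.06) and Slc35d1 (1.77), which are described in the report. In normal tissue that comparison sets female against male transcripts.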

How the results depend on the processing

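The count of 4222 genes fell to 907 with a term for high Xist, to 1443 with the high-Xist tumors only and to 836 with KO-8-hetero alone, and 1553 also reached a log2 fold change of 1. With each library left out it ranged from 2965 to 3971. Under median centring it was 4353, of which 38.9% were higher, against 48.8% as reported. The difference between KO-8-hetero and KO-1-hetero, 0 genes, rose to 170 with the spread of all 24 libraries and ranged from 0 to 1368 with a library left out. Against WT-young, 0 genes became 6 with the replicate block and ranged from 0 to 1221 with a library left out. Against KO-8-homo, 46 genes became 19 after quantile normalization, 0 with all 24 libraries and 7 with the replicate block, and ranged from 0 to 1240.

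Maf, at 0.80, missed the threshold after quantile normalization (0.55), with a term for high Xist or high-Xist tumors only (0.77), with the length trend removed (0.57) and with KO-8-hetero alone (0.69), and ranged from 0.67 to 0.94 with a library left out. Maff, not past the threshold, reversed to -0.00478 under median centring, -0.00882 with the term for high Xist or high-Xist tumors only, -0.0827 with KO-8-hetero alone, and to -0.0147 and -0.0568 without KO-1-hetero normal replicate 2 and KO-8-hetero normal replicate 1, in a range up to 0.281 without KO-8-hetero normal replicate 2. Wwox reversed to -0.0515 after quantile normalization.

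Of 174 named genes, Xist and Ddx3y not among them, under 24 alternatives 3630 values kept direction and side of the threshold, 490 missed it and 7 reversed. Same-numbered tumor and normal deviations correlated at -0.173, 0.0516, 0.0566 and -0.0502. With 2 normal libraries in a set, the deviations of one mirror those of the other. These correlations therefore cannot show or exclude a pairing. Tumor and normal libraries that share a number differ in Xist and Ddx3y, as described in the report, so as labelled they are not from the same animal. With the replicate numbers as a block, which in these sets therefore does not pair tissues of the same animal, 2835 genes passed. For the reversals and lost calls the cause was not tested. Depth is unknown, and low genes are the least certain.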

Other observations

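Values are given for 5 further genes of the 46 whose tumor-normal difference departed from that of KO-8-homo, picked after their values were seen. Of the 19 tested proliferation genes 1 was among the 46, Mki67. It had means of 24.2 FPKM in KO-1-hetero normal tissue, 6.81 FPKM in KO-8-hetero normal tissue and 26.3 FPKM in KO-8-homo normal tissue, beside tumor means of 22.4, 27.1 and 19.1 FPKM. Kif15, a mitotic kinesin, had normal means of 4.07, 0.816 and 4.63 FPKM in the same order, and Cenpe, a kinesin of the kinetochore, 3.84, 0.751 and 4.81 FPKM. KO-8-hetero normal tissue was the lowest of the 3 for each gene. Best2, a chloride and bicarbonate channel of colonic goblet cells, had normal means of 18.8, 49 and 4.04 FPKM, and Muc1, a membrane mucin, 7.44, 10.1 and 1.57 FPKM, both lowest in KO-8-homo. The heterozygous normal libraries had female and the KO-8-homo normal libraries male transcripts. Sex and group therefore cannot be told apart in this comparison for any of the 5 genes. What part sex has in these values was not tested.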
